A study of Mus musculus with 12 samples.

Results

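Messenger RNA levels of 45 mouse genes of DNA replication and S phase were followed in normal epidermis and in skin papillomas given camphor white oil (CWO) or acetone vehicle. The genes were chosen by name from knowledge of the replication machinery, with earlier results of these data known. All 45 were found, 1 row each, among the 23235 gene symbols in the deposited tables, and all 45 passed the filter on low values in every comparison. They were sorted into 9 roles: 9 genes of origin licensing, 3 of helicase activation, 5 of the sliding clamp and its loader, 6 of polymerases and primase, and 5 of nucleotide supply. A further 5 protect, trim, join or repair strands, 5 encode E cyclins and E2F factors, 3 copy chromatin, and 4 protect the fork or signal its arrest.

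The mice were FVB/NJ, and polyA RNA was sequenced from 4 groups of 3 samples each. CWO, an essential oil of the camphor tree, was applied at 20% and compared with acetone alone. For the epidermis groups, 5 shaved mice received 400 µL of oil or vehicle on the skin. Epidermis was then split from the skin 24 h later with ammonium thiocyanate, and the 3 samples of best RNA integrity per treatment were sequenced. All papilloma mice, vehicle included, were shaved at 6 to 7 weeks of age and received 400 nmol of the carcinogen DMBA followed by a course of TPA, a tumour promoter, at 10 nmol per dose. They then received oil or vehicle for 6 weeks, and 4 pre-malignant tumours per mouse were pooled from each of 3 mice. The epidermis mice had neither DMBA nor TPA in the labels, so tissue, carcinogen and promoter history, length of treatment and dissection cannot be told apart in a comparison of the tissues.

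Before a cell copies its DNA, origins are licensed when Cdc6 and Cdt1 load the ring of Mcm2 to Mcm7 subunits onto chromatin, and geminin (Gmnn) keeps Cdt1 from doing so again. At the start of S phase the cyclin E kinase releases E2F factors, which drive transcription of much of this machinery, and Mcm10 and the GINS complex turn the loaded rings into active helicases. Primase and polymerases then copy the strands, and the clamp Pcna holds polymerases on DNA. Ribonucleotide reductase, thymidine kinase and thymidylate synthase supply the building blocks. In skin, dividing cells lie mainly in the basal layer of the epidermis and in growing hair follicles, and tumour promotion is known to raise their number.

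Library depth ranged from 11.1 to 24.6 M (mega) fragments, and the fewest fragments behind a member in any library were 13 for Chek1, 25 for Mcm10 and 30 for Gins1. Levels are given as FPKM, fragments per kilobase of transcript scaled to the mapped fragments of the library, which corrects for gene length and depth but not for how the rest of the library is composed. All 7 basal and all 8 suprabasal keratinocyte markers were above 0 in every library of both tissues. Skeletal muscle markers were also present in epidermis: the summed FPKM of 17 such genes was 12480, 19770 and 4019 in the vehicle libraries and 4266, 3335 and 4337 in the CWO libraries. In papillomas that sum ran from 10.8 to 461. Vehicle epidermis libraries 1 and 2 therefore stood apart from the other 4 epidermis libraries in muscle RNA, and the member medians that rest on them are given with and without them. The labels state separate mice for the papillomas only, so p-values for epidermis measure the spread between samples.

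Because E2F factors act through known promoter words, the members' promoters were searched for them as a description. RefSeq promoters on GRCm38.p6, each running from 250 bases before to 50 bases after a transcription start, were found for 36 of the 45 members. They were searched on both strands for the E2F words TTTCCCGC, TTTCGCGC, TTTGCCGC and TTTGGCGC, and overlapping matches were kept. At least 1 word stood in 13 of 42 member promoters (31.0%), against 2.26% of all 32851 promoters in the table. The 13 genes were Mcm3, Mcm5, Mcm6, Mcm7, Cdc6, Cdt1, Rfc3, Pola1, Pold1, Lig1, E2f2, Uhrf1 and Clspn. A shorter word, CCAAT, stood in 52.4% of member promoters and 37.4% of all promoters. The words TTTGAA or TTCGAA, also searched, stood in 14.3% of member promoters and 19.2% of all promoters. Mcm4, Gmnn, Gins1, Gins2, Rfc2, Prim2, Pole, Ccne2 and Tipin had no promoter in the table. A match describes letters in the window and is not a measured binding site. The 13 members with a word had a median log2 fold change of 0.52 under oil in epidermis, and the 23 with a promoter but no word had 0.54.

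The promoters of 4 members are shown 5′ to 3′ on the gene's strand with the E2F words in capitals. Mcm3 and Uhrf1 were called higher in oiled epidermis, Mcm6 holds the most words, and E2f2 encodes a factor that binds such words itself. Mcm3 (chr1:20820263-20820562, minus strand) has words that start 20 and 39 bases after the start site. Mcm6 (chr1:128359656-128359955, minus strand) has words that start 110, 106 and 47 bases before it, the first pair overlapping. The word of Uhrf1 (chr17:56304063-56304362, plus strand) begins 185 bases before its start, and that of E2f2 (chr4:136172024-136172323, plus strand) begins 40 bases after.
Mcm3: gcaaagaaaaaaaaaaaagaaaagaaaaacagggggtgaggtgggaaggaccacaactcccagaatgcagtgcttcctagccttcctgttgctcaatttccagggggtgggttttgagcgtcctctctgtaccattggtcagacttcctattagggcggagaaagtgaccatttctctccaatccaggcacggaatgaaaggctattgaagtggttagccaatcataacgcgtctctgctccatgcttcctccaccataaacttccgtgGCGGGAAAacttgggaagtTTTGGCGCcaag
Mcm6: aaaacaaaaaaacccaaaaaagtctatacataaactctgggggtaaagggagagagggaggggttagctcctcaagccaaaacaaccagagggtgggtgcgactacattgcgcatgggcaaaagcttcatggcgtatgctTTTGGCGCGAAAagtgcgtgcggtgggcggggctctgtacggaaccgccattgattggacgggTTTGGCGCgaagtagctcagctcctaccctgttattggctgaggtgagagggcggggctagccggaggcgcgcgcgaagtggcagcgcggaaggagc
Uhrf1: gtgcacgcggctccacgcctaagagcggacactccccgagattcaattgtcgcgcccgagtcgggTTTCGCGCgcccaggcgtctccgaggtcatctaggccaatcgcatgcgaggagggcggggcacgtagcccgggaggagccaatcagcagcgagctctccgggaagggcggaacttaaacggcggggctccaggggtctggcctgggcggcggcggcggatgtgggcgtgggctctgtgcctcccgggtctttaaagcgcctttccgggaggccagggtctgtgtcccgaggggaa
E2f2: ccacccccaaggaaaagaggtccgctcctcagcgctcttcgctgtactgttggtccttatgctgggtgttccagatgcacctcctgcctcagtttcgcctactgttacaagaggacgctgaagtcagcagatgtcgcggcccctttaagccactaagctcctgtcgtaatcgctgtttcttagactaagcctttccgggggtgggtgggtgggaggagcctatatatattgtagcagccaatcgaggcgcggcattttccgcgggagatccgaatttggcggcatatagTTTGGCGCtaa

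In epidermis 24 h after the oil, all 45 members had a log2 fold change above 0, with a median of 0.52 and a range from 0.04 for Rpa1 to 1.04 for Tk1. The median over all 12287 genes tested was 0.02. In 35 of the 45 members all 3 CWO libraries lay above all 3 vehicle libraries, against 12.1% of all genes tested, and no member lay wholly below, against 6.67% of all genes. The 10 members whose groups overlapped were Mcm7, Rfc2, Pola2, Prim1, Pold1, Pole, Rpa1, Ung, Ccne1 and Chaf1b. In bulk tissue, more cells in S phase and more RNA per cell cannot be told apart. Of 7 basal keratinocyte markers 0 were called with oil (median 0.10). Their summed FPKM was 7914, 9195 and 9086 with vehicle and 11530, 9392 and 9266 with CWO. Of 8 suprabasal markers 0 were called (median -0.06). Of 7 activated keratinocyte markers 2 were called higher with oil (median 1.84), and of 6 fibroblast markers 1 was higher and 2 lower. Of 8 sebaceous markers 1 was called each way, and of 6 Langerhans and dendritic cell markers 1 was higher. Summed hair follicle markers, none called, were 20.9, 9.65 and 144 FPKM with vehicle and 30.6, 232 and 10.6 with CWO. The part of these cell types in the member values was not tested.

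Of these 45 members, 5 rose at a limma adjusted p under 0.05 and none fell: Mcm3, Uhrf1, Tk1, Gmnn and Rrm1. Over all genes, 1.81% were called higher and 0.179% lower. At an unadjusted p under 0.05 there were 35 members, and 1808 of all 12287 genes. Over 21 alternative settings, the call was lost in 7 for Mcm3, 9 for Uhrf1, 9 for Tk1, 11 for Gmnn and 11 for Rrm1. The count of 5 rested on few libraries: it was 0 without vehicle library 1, 0 without vehicle library 2, 11 without vehicle library 3, 0 without CWO library 1 and 1 without CWO library 2. Calls over all genes moved with it, from 245 to 83, 104, 682, 64 and 93 in the same order. The median stayed between 0.43 and 0.57 in these fits. With both muscle-rich vehicle libraries left out, vehicle library 3 alone stood against the CWO libraries. The member median was then 0.43, with all 45 members above 0. Without CWO library 1, 43 members were above 0 and 2 below. Without vehicle library 1, without CWO library 2 and after quantile normalization, 44 were above and 1 below.

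In papillomas after 6 weeks of oil, no member was called in either direction, as for all 12141 genes tested (0% higher and 0% lower). The member median was 0.08, with 33 above 0 and 12 below, and the median of all genes was -0.01. The member median was -0.014 without vehicle library 3, with 22 above 0 and 23 below, and 0.017 without CWO library 3, with 26 above and 19 below. At an unadjusted p under 0.05 there was 1 member, E2f2, and 306 genes in all. The CWO libraries lay wholly above the vehicle libraries for 3 members, Mcm6, Rfc2 and Chaf1b, against 3.02% of all genes, and wholly below for 1, E2f2, against 3.58%. The largest positive values were 0.23 for Rfc4, 0.21 for Prim2 and 0.20 for Dut. The most negative were -0.35 for E2f2, -0.16 for Ung and -0.15 for Ccne2.

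The difference between the oil effects, papilloma minus epidermis, was fitted over all 12 libraries. It was below 0 for 43 of 45 members, with a median of -0.46 against -0.04 for all 13183 genes. None of the 45 passed the adjusted threshold in either direction, where 0.0303% of all genes were called higher and 0.713% lower, and 28 members had an unadjusted p under 0.05, as did 1306 of all genes. The most negative values were -0.95 for Tk1 (adjusted p = 0.138), -0.92 for E2f2 (0.0760) and -0.85 for Mcm10 (0.164), by limma. Rpa1 at 0.08 and Pold1 at 0.01 were the members above 0, followed by Rfc4 at -0.09. Without vehicle epidermis library 1 there was 1 call, without library 3 there was 1, and without CWO epidermis library 3 there were 5, all lower, while calls over all genes went from 98 to 62, 328 and 231. With vehicle epidermis libraries 1 and 2 left out, which leaves library 3 alone in that group, the median was -0.34.

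**Figure D1:**
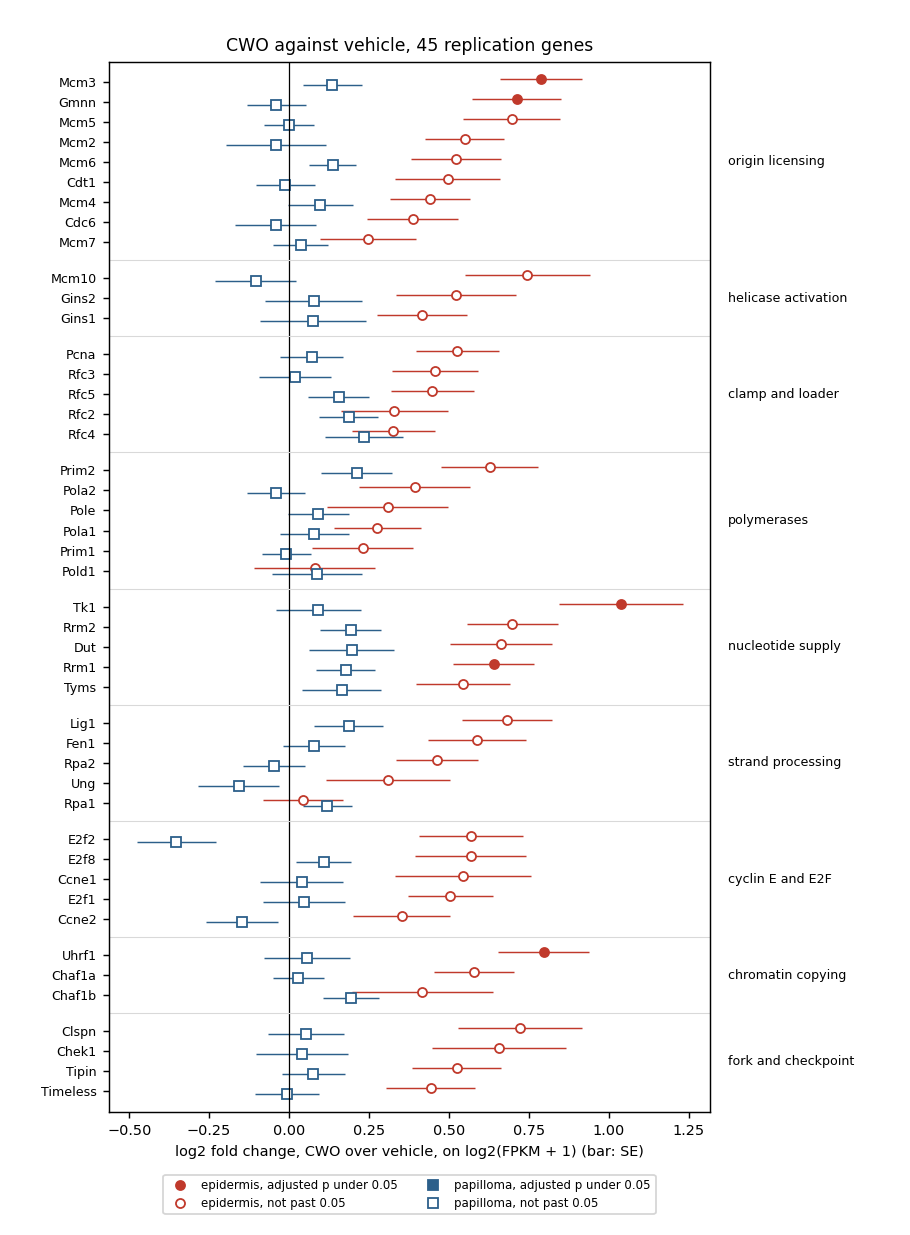
Log2 fold change of CWO over vehicle on log2(FPKM + 1) for each of the 45 members, by role, with the standard error as a bar (3 libraries per group). Red circles are epidermis and blue squares papilloma, filled where the adjusted p is under 0.05. All 45 epidermis values lie right of 0, 5 of them filled, while papilloma values lie between -0.35 and 0.23 with none filled.

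Papilloma was compared with epidermis under vehicle and, on separate libraries, under CWO. The vehicle comparison shares its epidermis libraries with the oil comparison in epidermis. Under vehicle 31 of 45 members were higher in papilloma and 5 lower, where 31.8% of all genes were higher and 38.3% lower. The median of the members was 0.67, and that of all 12787 genes was -0.07. Groups did not overlap for 32 members in the higher direction, against 33.8% of all genes, and for 5 in the lower direction, against 40.7%. With vehicle epidermis libraries 1 and 2 left out, so that library 3 alone stood for vehicle epidermis, the median was 0.645. Under CWO 16 members were higher and 9 lower, where 29.1% of all genes were higher and 39.7% lower, with a member median of 0.15 against -0.12 over 12688 genes. With median-ratio scaling the split was 20 higher and 5 lower, and after quantile normalization 21 and 5. The CWO median was 0.245 without epidermis CWO library 1 and 0.089 without papilloma CWO library 3. In the comparison as first given, 19 members lay wholly higher (31.4% of all genes) and 10 wholly lower (42.6%).

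The largest tissue differences in the higher direction belonged to E2f8, Ccne1 and Rrm1 under both treatments, and those in the lower direction to E2f2, E2f1 and Ung. Under vehicle, the 10 called members with the smallest p were E2f8, Mcm5, Rrm1, Ccne1, Rrm2, Mcm10, Gmnn, Clspn, Ccne2 and Mcm4, all higher. Under CWO, the members called lower were Gins2, Pcna, Rfc3, Dut, Rpa1, Rpa2, Ung, E2f1 and E2f2. Muscle markers moved with tissue: all 17 fell in papilloma in both comparisons. Markers of other cell types moved too. Under vehicle 7 of 8 fibroblast genes were higher (median 2.52), as were 4 of 5 endothelial (1.78), 4 of 5 activated keratinocyte (6.44), 5 of 8 hair follicle (2.75, 1 lower) and 4 of 6 macrophage and neutrophil genes (1.22, 2 lower). All 8 sebaceous (-3.11) and all 5 T cell genes (-2.86) were lower, and so were 4 of 5 Langerhans and dendritic cell genes (-2.26, 1 higher). Keratinocyte markers were mixed: of 7 basal genes 3 were higher and 2 lower (0.11), and of 8 suprabasal genes 2 were higher and 5 lower (-0.95). The part of these cell types in the member values cannot be told apart from tissue. When the mean of the muscle list entered the fit, 4 members were called under vehicle and 0 under CWO, and the medians were 0.57 and 0.21. Calls over all genes fell too, from 8971 to 1616 under vehicle and from 8730 to 1 under CWO.

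**Figure D2:**
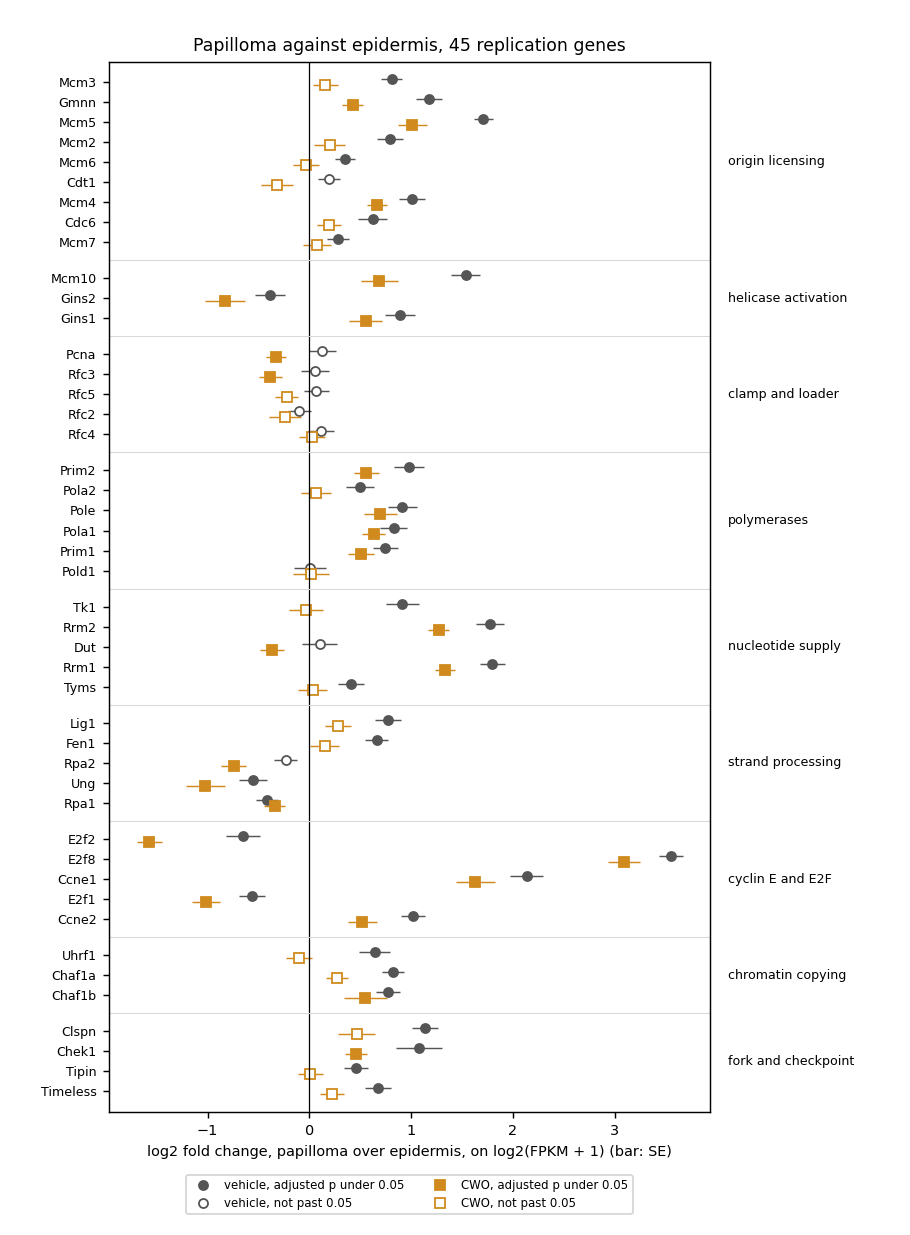
Log2 fold change of papilloma over epidermis on log2(FPKM + 1) for each of the 45 members, by role, with the standard error as a bar (3 libraries per group). Grey circles are vehicle and orange squares CWO, filled where the adjusted p is under 0.05. E2f8 lies farthest right at 3.55 and 3.09, and E2f2 farthest left at -0.65 and -1.57.

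Among the 9 licensing genes, Mcm3, a subunit of the helicase ring (mm9 chromosome 1, 20793095 to 20810294), stood at 11.7, 11.5 and 12.5 FPKM in vehicle epidermis and 24.98, 19.4 and 19.8 in CWO epidermis. The groups did not overlap, and Mcm3 rose by 0.79 on the log2 scale (SE 0.13, limma adjusted p = 0.0238). In papilloma Mcm3 was at 22.2, 23.2 and 19.4 with vehicle and 23.4, 22.4 and 25.6 with CWO, values that overlap and reach the level of oiled epidermis. Its tissue difference was 0.81 under vehicle (adjusted p = 1.84e-04) and 0.15 under CWO (0.290).

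Geminin, the inhibitor of Cdt1 (mm9 chromosome 13, 24843714 to 24853806), had Gmnn levels of 16.5, 11.6 and 14.3 FPKM in vehicle epidermis. With oil they were 24.8, 22.7 and 23.3, all above the vehicle libraries, a rise of 0.71 (SE 0.14, adjusted p = 0.0450). Papillomas held more Gmnn than either epidermis group, at 34.6, 32.8 and 31.3 with vehicle and 28.5, 32.8 and 34.9 with CWO. The difference of oil effects for Gmnn was -0.75 with an adjusted p of 0.0704, the smallest among the members. Cdt1, its target, differed less between tissues, 0.19 under vehicle and -0.32 under CWO, neither past the threshold. The ratio of Gmnn to Cdt1 within a library ran from 1.25 to 1.95 in epidermis and from 2.67 to 2.78 in papilloma.

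The other ring subunits had epidermal log2 fold changes from 0.25 for Mcm7 to 0.70 for Mcm5, none called. Their sum with Mcm3, Mcm2 to Mcm7 together, was 82.3, 76.0 and 87.1 FPKM in vehicle epidermis and 141, 115 and 109 in CWO epidermis. In papilloma the sum was 154, 159 and 136 with vehicle and 149, 151 and 167 with CWO, above vehicle epidermis in every library. Mcm6 was the most abundant subunit in all 6 epidermis libraries. In all 6 papilloma libraries Mcm5 was highest and Mcm2 lowest, so the order of the subunits, a comparison within each library, differed between tissues.

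Mcm5 is the subunit that set this apart. It stood at 10.9, 9.97 and 11.4 FPKM in vehicle epidermis, 21.4, 18.8 and 14.6 in CWO epidermis, 37.4, 38.8 and 36.1 in vehicle papilloma and 36.3, 35.4 and 40.7 in CWO papilloma. The papilloma libraries lay above every epidermis library, by 1.71 under vehicle (adjusted p = 1.96e-06) and 1.011 under CWO (3.06e-04). Against Mcm7 in the same library, Mcm5 was 0.601, 0.616 and 0.624 times as high in vehicle epidermis, 0.827, 0.926 and 0.831 times in CWO epidermis, and 1.62 to 1.88 times in papilloma. The oil ratio in epidermis lay above that of vehicle in every library. Mcm4 also differed between tissues, by 1.007 and 0.66, while Mcm2, Mcm6, Mcm7 and Cdc6, the loader, were called higher under vehicle only, at 0.79, 0.35, 0.28 and 0.62. The Mcm7 call was lost in 11 of 21 alternatives. Whether the tissue difference of a member changed with oil is the same contrast as the difference of oil effects, which no member passed.

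**Figure D3:**
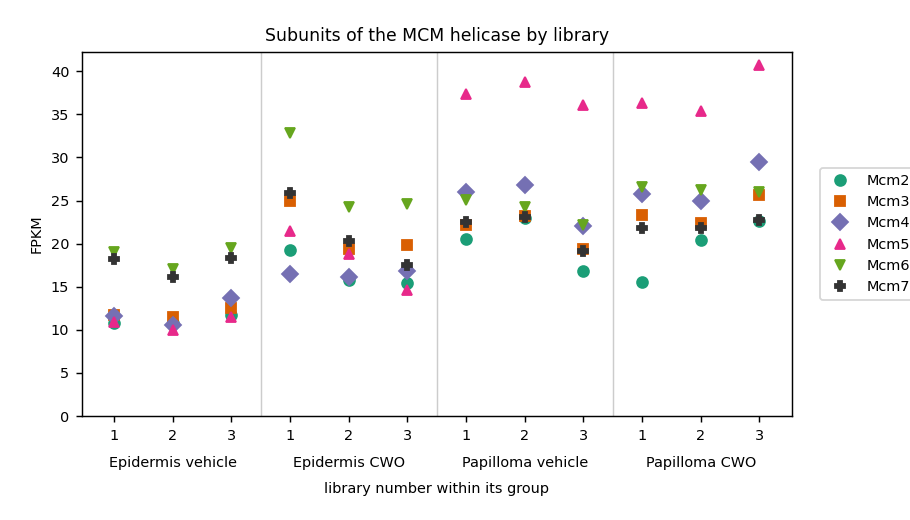
FPKM of the 6 MCM helicase subunits in each of the 12 libraries, grouped by tissue and treatment. Mcm6 lies highest in the 6 epidermis libraries and Mcm5 highest in the 6 papilloma libraries.

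Of the 3 helicase activation genes, Mcm10, which helps turn the loaded ring into an active helicase, was low in vehicle epidermis at 1.26, 0.691 and 1.06 FPKM and stood at 2.95, 2.56 and 1.62 with oil. The groups did not overlap, but its log2 fold change of 0.74 (SE 0.20) had an adjusted p of 0.113. In papilloma it was 4.87, 5.07 and 4.35 with vehicle and 4.82, 3.54 and 4.82 with CWO. That put Mcm10 higher in papilloma by 1.53 under vehicle and 0.69 under CWO, both called. The pair of GINS subunits had tissue differences of opposite sign. Gins1 was at 5.69, 5.16 and 4.85 FPKM in vehicle epidermis, 8.29, 7.54 and 6.21 in CWO epidermis, 12.9, 10.3 and 8.80 in vehicle papilloma and 8.93, 12.5 and 12.4 in CWO papilloma, with an oil value of 0.42 (SE 0.14, adjusted p = 0.217) in epidermis and called higher in papilloma by 0.89 and 0.55. Gins2 was lower in papilloma by 0.39 under vehicle and 0.83 under CWO, both called, with an oil value of 0.52 in epidermis. The call under vehicle was lost in 12 of 21 alternatives, in each case with Gins2 still lower.

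Pcna, the sliding clamp that holds polymerases on DNA, was the most abundant member in every group by mean FPKM. It stood at 61.7, 50.4 and 68.8 FPKM in vehicle epidermis and 84.00, 83.9 and 92.2 in CWO epidermis, without overlap, a log2 fold change of 0.53 (SE 0.13) with an adjusted p of 0.0963. Papillomas had 71.7, 67.4 and 57.7 with vehicle and 63.5, 72.3 and 70.5 with CWO, which overlapped vehicle epidermis and lay below every CWO epidermis library. Under CWO this made Pcna lower in papilloma by 0.33 (adjusted p = 0.0139).

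Of the clamp loader subunits, which open the clamp, Rfc5 was at 11.3, 10.9 and 13.3 FPKM in vehicle epidermis and 18.6, 15.2 and 15.7 in CWO epidermis, with a value of 0.45 (SE 0.13, adjusted p = 0.152). In papilloma Rfc5 was 12.5, 13.6 and 11.2 with vehicle and 12.9, 14.6 and 14.2 with CWO. Rfc2, Rfc3 and Rfc4 had epidermal values of 0.33, 0.46 and 0.33, none called. No gene of the clamp or its loader differed between tissues under vehicle, where values ran from -0.10 to 0.13, and Rfc3 was lower under CWO by 0.38. Each of the other 8 roles held at least 1 call under vehicle, where 31.8% of all genes were called higher and 38.3% lower.

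Among polymerases and primase, Prim2, the large primase subunit, was at 4.69, 3.68 and 5.40 FPKM in vehicle epidermis and 8.32, 7.20 and 7.22 in CWO epidermis. These groups did not overlap, with a value of 0.63 (SE 0.15, adjusted p = 0.0911). In papilloma Prim2 stood at 10.9, 9.96 and 8.89 with vehicle and 12.8, 11.9 and 10.2 with CWO. Pola2, a subunit of the polymerase alpha complex that starts each strand, was at 7.13, 5.12 and 6.69 FPKM in vehicle epidermis and 9.74, 9.38 and 6.77 with oil. The third CWO library fell among the vehicle values, and the value of 0.39 (SE 0.17) had an adjusted p of 0.350. Papilloma Pola2 was 9.51, 9.85 and 8.40 with vehicle and 8.74, 9.54 and 8.60 with CWO.

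Pola1, the catalytic subunit of polymerase alpha, Prim1, the catalytic primase subunit, and Pole, the catalytic subunit of the leading-strand polymerase, had epidermal values of 0.28, 0.23 and 0.31. They were called higher in papilloma under vehicle by 0.83, 0.74 and 0.91 and under CWO by 0.63, 0.51 and 0.70. Pold1, the catalytic subunit of polymerase delta, had values near 0 in each of these comparisons: 0.08 in oiled epidermis, 0.00 between tissues under vehicle and 0.01 under CWO. Its level was 7.59, 6.66 and 6.17 FPKM in vehicle epidermis and 8.52, 8.46 and 5.19 in CWO epidermis, with 7.42, 7.98 and 5.29 and 7.80, 6.97 and 7.11 in papilloma.

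Tk1, thymidine kinase, which makes thymidine monophosphate by salvage (mm9 chromosome 11, 117676833 to 117687328), had the largest oil value of the 45 in epidermis. It stood at 14.5, 9.47 and 13.9 FPKM with vehicle and 31.5, 27.7 and 21.5 with CWO, and no CWO library came down to the vehicle libraries. Tk1 rose by 1.04 (SE 0.19, adjusted p = 0.0366), the single member past a 2-fold change on the log2(FPKM + 1) scale. By the ratio of group means, which does not add 1, the folds were 2.13 for Tk1, 2.38 for Mcm10, 2.21 for Clspn and 2.10 for Chek1, the last 3 at low levels. In papilloma it was 26.7, 24.8 and 21.6 with vehicle and 21.7, 30.6 and 26.2 with CWO. The tissue difference was 0.91 under vehicle (adjusted p = 0.00123) and -0.03 under CWO (0.866).

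Rrm1, the large subunit of ribonucleotide reductase (mm9 chromosome 7, 109590209 to 109618285), was at 11.8, 11.9 and 14.5 FPKM in vehicle epidermis and 22.3, 19.1 and 19.6 in CWO epidermis. Rrm1 rose by 0.64 (SE 0.13, adjusted p = 0.0462), with no overlap. Papillomas stood far above, at 52.2, 45.7 and 42.01 with vehicle and 53.9, 49.97 and 54.2 with CWO, a tissue difference of 1.797 (adjusted p = 5.36e-06) and 1.33 (7.98e-06). Its partner Rrm2 followed, at 13.99, 12.5 and 17.4 FPKM in vehicle epidermis and 26.6, 24.2 and 21.97 with oil, a value of 0.70 just outside the threshold (adjusted p = 0.0530), and from 46.3 to 63.0 in papilloma. The ratio of Rrm2 to Rrm1 stayed between 1.06 and 1.27 in all 12 libraries.

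Tyms, thymidylate synthase, and Dut, which removes dUTP, had epidermal values of 0.54 and 0.66, not called. Between tissues Tyms was higher under vehicle by 0.41 and stood at 0.03 under CWO. Dut was at 0.10 under vehicle and lower under CWO by 0.37. The ratio of Tyms to Rrm2 was 0.255 to 0.290 in epidermis and 0.0908 to 0.130 in papilloma, without overlap, so nucleotide supply genes did not keep the same proportions across tissues.

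**Figure D4:**
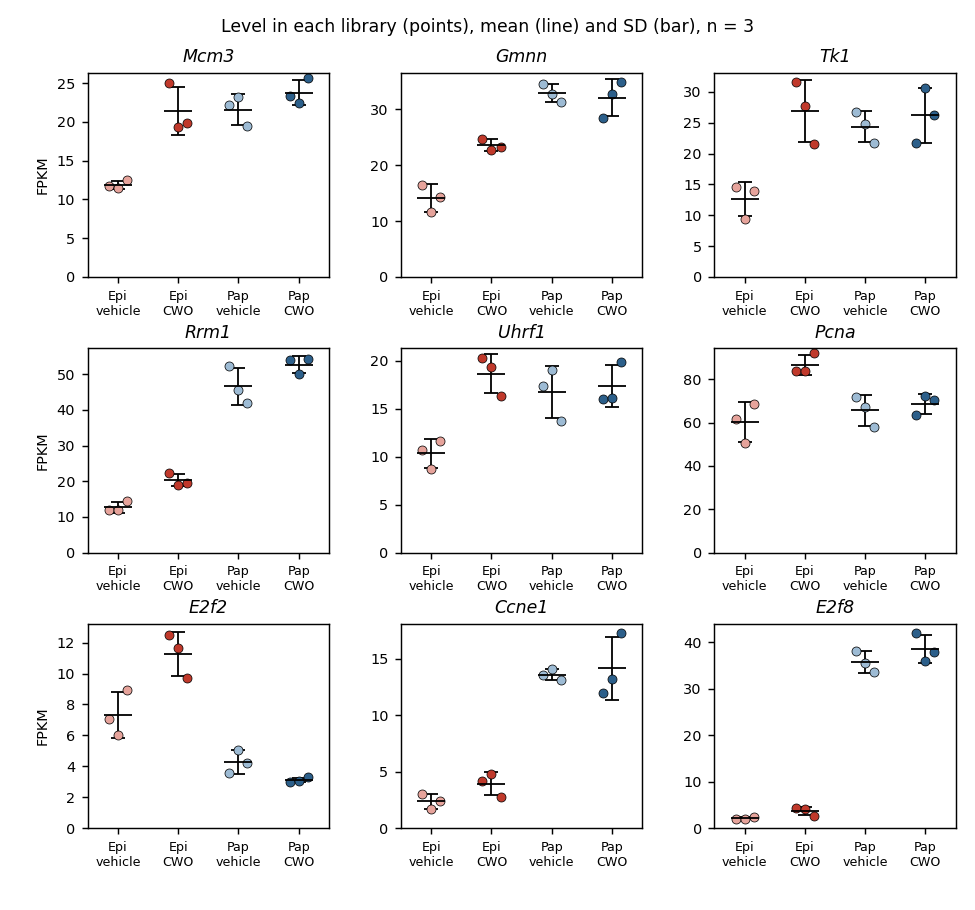
FPKM in each library (points), with the mean (line) and SD (bar) of 3 libraries, for 9 members in epidermis and papilloma with vehicle or CWO. Mcm3, Gmnn, Tk1, Rrm1 and Uhrf1 lie higher in CWO than in vehicle epidermis in every library, E2f2 is lower in every papilloma library than in epidermis, and E2f8 and Ccne1 are higher.

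The 5 genes that protect, trim, join or repair strands were led in epidermis by Lig1, the ligase that joins Okazaki fragments. Lig1 was at 11.6, 9.32 and 10.3 FPKM with vehicle and 20.2, 16.4 and 15.5 with CWO, without overlap, and its value of 0.68 (SE 0.14) had an adjusted p of 0.0544. In papilloma it was 19.6, 19.99 and 15.9 with vehicle and 21.9, 19.1 and 22.4 with CWO. Fen1, the flap endonuclease, stood at 10.9, 10.9 and 12.9 FPKM in vehicle epidermis and 22.05, 15.3 and 16.7 in CWO epidermis, with a value of 0.59 (SE 0.15, adjusted p = 0.114). Papilloma Fen1 was 19.3, 20.2 and 16.9 with vehicle and 18.5, 19.4 and 21.8 with CWO.

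Rpa1 and Rpa2 are subunits of the protein that coats single strands, and Ung removes uracil from DNA. In oiled epidermis their values were 0.04, 0.46 and 0.31, none called. Under vehicle Rpa1 was lower in papilloma by 0.42 and Ung by 0.55, and under CWO Rpa1, Rpa2 and Ung were lower by 0.34, 0.74 and 1.02. Lig1 and Fen1 were called higher under vehicle by 0.77 and 0.66, so members of this role differed in opposite directions between tissues.

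The E2F factors E2f1 and E2f2, transcriptional activators, and E2f8, a repressor of the same targets, parted between tissues. E2f1 stood at 7.14, 6.49 and 7.80 FPKM in vehicle epidermis and 11.9, 9.57 and 10.2 with oil, without overlap, a value of 0.50 (SE 0.13, adjusted p = 0.116). In papilloma E2f1 was lower, at 4.97, 4.68 and 3.91 with vehicle and 3.97, 4.80 and 5.39 with CWO, by 0.56 (adjusted p = 0.00428) and 1.02 (2.32e-04). E2f2 (mm9 chromosome 4, 135728309 to 135751971) was at 7.03, 6.03 and 8.94 FPKM in vehicle epidermis and 12.5, 11.7 and 9.71 in CWO epidermis, a value of 0.57 (SE 0.16, adjusted p = 0.146) with no overlap. In papilloma it ran the other way: the CWO libraries, at 2.99, 3.05 and 3.29, all lay below the vehicle libraries, at 3.56, 5.06 and 4.22, a value of -0.35 with an adjusted p of 1.00.

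E2f8 (mm9 chromosome 7, 56121799 to 56136411) was at 2.04, 1.93 and 2.46 FPKM in vehicle epidermis and 4.24, 4.17 and 2.69 with oil, and at 38.2, 35.5 and 33.5 and 41.9, 36.04 and 37.9 in papilloma. The papilloma level was 16.7-fold that of epidermis under vehicle by means (log2 3.55, adjusted p = 1.78e-07) and 10.4-fold under CWO (3.09, adjusted p = 1.06e-06). Against E2f1 in the same library, E2f8 was 0.265 to 0.436 times as high in epidermis and 7.03 to 10.6 times in papilloma. Its oil value in epidermis was 0.57 (adjusted p = 0.174). The E cyclins, which drive entry into S phase, were also higher in papilloma: Ccne1 by 2.13 and 1.63 and Ccne2 by 1.02 and 0.52, all called. In epidermis their oil values were 0.54 and 0.35, not called, and Ccne1 libraries overlapped.

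Uhrf1, which recognises hemimethylated DNA behind the fork and recruits the maintenance methyltransferase (mm9 chromosome 17, 56442760 to 56462909), was at 10.8, 8.70 and 11.6 FPKM in vehicle epidermis and 20.3, 19.4 and 16.4 in CWO epidermis. Every CWO library lay above the vehicle libraries, and Uhrf1 rose by 0.80 (SE 0.14, adjusted p = 0.0319). In papilloma it was 17.4, 19.1 and 13.7 with vehicle and 16.1, 16.2 and 19.9 with CWO, higher than vehicle epidermis by 0.64 (adjusted p = 0.00524) and at -0.10 against CWO epidermis (0.506).

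Chaf1a and Chaf1b are subunits of the factor that lays histones on new DNA. Chaf1a was at 6.82, 6.18 and 6.44 FPKM in vehicle epidermis, 10.9, 10.6 and 9.08 in CWO epidermis, 12.3, 12.9 and 11.4 in vehicle papilloma and 11.97, 12.4 and 13.02 in CWO papilloma, with an oil value of 0.58 (SE 0.12, adjusted p = 0.0627) in epidermis. Chaf1b had 0.42 in epidermis with overlapping groups. All 3 chromatin copying genes were called higher in papilloma under vehicle, and Chaf1b also under CWO. The Chaf1b call under CWO was lost in 8 of 20 alternatives.

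Of the fork protection and checkpoint genes, Chek1 had the lowest mean level of the 45 in vehicle epidermis. Clspn, which carries the stalled-fork signal to Chek1, was at 1.47, 0.970 and 1.27 FPKM in vehicle epidermis and 3.19, 3.20 and 1.82 in CWO epidermis, a value of 0.72 (SE 0.19, adjusted p = 0.120) without overlap. In papilloma it was 4.10, 3.82 and 3.73 with vehicle and 3.97, 3.48 and 4.83 with CWO. Tipin, the partner of Timeless in fork protection, stood at 14.4, 14.96 and 17.4 FPKM with vehicle and 21.2, 20.6 and 26.98 with oil in epidermis, a value of 0.52 (SE 0.14, adjusted p = 0.116). Its papilloma levels were 23.4, 22.9 and 18.9 with vehicle and 23.6, 21.3 and 23.8 with CWO. Chek1, the checkpoint kinase, had 0.66 and Timeless 0.44, not called. All 4 were called higher in papilloma under vehicle, from 0.46 to 1.13, and Chek1 alone under CWO.

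Neighbouring genes of the cell cycle, listed from textbook knowledge with earlier results of these data known, set these values in context. In oiled epidermis, 1 of 32 other replication genes rose (median 0.29), Top2a, the topoisomerase that untangles sister DNA, at 1.40. Among 14 other nucleotide and chromatin assembly genes the histone chaperone Asf1b rose by 1.23, among 20 other regulators of the entry into S phase Ccna2, cyclin A2, rose by 1.43, and among 17 checkpoint and homologous repair genes Rad51ap1 rose by 0.87. No CDK inhibitor of 6 was called. Of 25 mitosis genes 17 rose, with a list median of 1.21, more than the median of 0.52 of the members. The smallest p among them belonged to Birc5, Aurkb and Cenpa, at 1.65, 1.51 and 1.57. Other members of these lists with the smallest p were Pold4 and Orc1 at 0.51 and 0.60, Dtymk and Slbp at 0.51 and 0.50, Mybl2 at 0.69 and Cdk6 at -0.42, Rad54l at 0.83, and the CDK inhibitors Cdkn2d, Cdkn2c and Cdkn1c at 0.60, 0.38 and -0.54, none called.

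No gene of these 6 lists was called in papilloma under oil, where the smallest p belonged to Top2a, Dbf4 and Pold2, to Asf1b, Samhd1 and Usp1, to Cdk2, Ccna2 and Rbl1, to Cdkn2a, Cdkn2c and Cdkn2b, to Blm, Cdc25b and Fanci, and to Ccnb1, Kif20a and Ccnb2, with values from -0.17 to 0.34. In the difference of oil effects, Ccna2 at -1.27 and the mitosis genes Aurkb, Birc5 and Cdca8 at -1.33, -1.47 and -1.10 were called. Next by p, without a call, came Top2a, Pold4 and Cdc45, Asf1b, Dtymk and Slbp, Cdk6 and Cdk2, Cdkn2c, Cdkn2d and Cdkn1c, and Rad54l and Rad51ap1.

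Between tissues under vehicle, 24 of 25 mitosis genes were higher and 1, Ttk, lower, with a median of 1.96. Of 33 other replication genes 19 were higher and 2, Pole4 and Rnaseh2a, lower, and of 14 nucleotide and chromatin assembly genes 8 were higher and 1, Dctpp1, lower. Of 21 regulators of S phase entry 12 were higher and 4 lower (Ccnd2, Ccnd3, Rbl2 and Tfdp2), and of 21 checkpoint and repair genes 13 were higher and 2 lower. CDK inhibitors went the other way, 6 of 7 lower, while Cdkn2a was higher by 4.89. The smallest p belonged to Top2a, Wdhd1 and Dbf4 at 2.37, 1.44 and 2.32, to Samhd1, Hells and Asf1b at 1.98, 1.802 and 1.12, and to E2f7, Ccnd1 and Ccna2 at 2.48, 2.16 and 1.82. In the other lists it belonged to Cdkn2a, Cdkn1a and Cdkn2c, the last pair at -0.67 and -0.74, to Blm, Fanca and Fancd2 at 1.97, 1.67 and 1.05, and to Bub1, Plk1 and Cdc20 at 2.31, 2.51 and 2.13.

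Under CWO the counts were 22 higher and 1 lower of 25 for mitosis, 13 and 6 of 33 for other replication genes, 5 and 4 of 14 for nucleotide and chromatin assembly genes, 11 and 4 of 21 for regulators of S phase entry, 10 and 3 of 21 for checkpoint and repair genes, and 1 and 5 of 6 for CDK inhibitors. The smallest p belonged to Dbf4, Topbp1 and Dna2 at 1.70, 0.85 and 1.04, to Samhd1, Hells and Slbp at 1.70, 1.24 and -0.64, and to Cdk6, Ccnd1 and E2f7 at 1.74, 2.34 and 2.18. In the other lists it belonged to Cdkn2a, Cdkn2c and Cdkn2d at 5.01, -1.27 and -1.19, to Blm, Fanca and Atr at 1.83, 1.38 and 0.91, and to Cenpe, Mki67 and Bub1 at 1.48, 1.44 and 1.48.

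The authors' deposited table for epidermis lists 176 genes, the largest adjusted p being 0.00544. It holds 4 members, all higher with oil. In the authors' deposited table these are Tk1 at a log2 fold change of 1.04, Mcm3 at 0.84, Uhrf1 at 0.81 and Lig1 at 0.73. Tk1, Mcm3 and Uhrf1 were also called here, and Lig1 was not, at 0.68. Gmnn and Rrm1, called here, are not among the genes that the authors list. The authors' deposited table for papilloma holds all 45 members, 34 above 0 and 11 below with a median of 0.08 and an adjusted p of 1 for each. In that authors' deposited table E2f2 is at -0.44 with an unadjusted p of 0.00577, and 44 of the 45 members have the same sign as here.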

How the data were processed

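PolyA RNA was measured in 12 libraries. The submitters' processing notes name mm9 as the build and, as tools, Cufflinks 2.0.2, TopHat2 2.0.4, DESeq and bcl2fastq 1.8.4, without their roles. The authors deposited FPKM per gene and library, and per the file headers their comparison tables hold a fold as a ratio, its log2 value and p-values. Fragment numbers were recovered here from each FPKM and its interval, and 68.2% to 69.5% of recovered values per library were whole within 0.02. A value whose Cufflinks status was not OK counted as missing. Short non-coding genes did not enter the tests.

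Groups were compared on log2(FPKM + 1) by limma (version 3.58.1, under R 4.3.3, eBayes with a trend on mean level). A gene entered when 3 or more of the fitted libraries reached an FPKM of 1. Fold changes on this scale understate changes of low genes. P-values are two-sided and Benjamini-Hochberg adjusted over all genes tested, with a threshold of 0.05. The pipeline was tested on simulated data. Members, lists and tests were chosen with earlier results of these data known. The 2 members of each role with the smallest p in epidermis were given in full, and in other comparisons the 3 largest values each way, up to 10 called members and 3 genes per list were named; levels of Mcm5, Pold1, Rrm2 and E2f8 were added after their values were seen. Some genes that this rule names are not reported here. Gene positions are mm9 as listed, and promoters are RefSeq on GRCm38.p6. Alternatives were other pseudocounts, filters, scalings, limma settings, a replicate block, limma-voom on recovered fragments, a muscle covariate, and libraries left out.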

Additional observations from a re-analysis of the deposited data

Results flagged for a closer look

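E2f2 stood out because all epidermis CWO libraries lay above, and all papilloma CWO libraries below, the vehicle libraries of their tissue. Its oil effect in papilloma minus that in epidermis was -0.92 on the log2 scale. The difference was tested over 12 libraries with limma and had an adjusted p of 0.0760, so it did not pass. It passed in 4 of 26 alternatives: after quantile normalization (-0.87), with array weights (-1.05), without vehicle epidermis library 3 (-1.06) and without CWO epidermis library 3 (-1.02). The order of the libraries is the rule by which E2f2 was flagged, so it adds nothing to that test. Of all genes tested, 12.1% lay wholly higher in oiled epidermis and 3.58% wholly lower in oiled papilloma. The share that did both was not counted.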

How the results depend on the processing

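The number of members called in oiled epidermis moved with the settings, more than the median did. From 5 in the main fit, it was 0 without a filter on low values, 3 without the intensity trend and 1 with limma-voom on recovered fragments. It was 0 with a muscle covariate, 8 after quantile normalization, 25 with all 12 libraries in 1 fit and 31 with array weights. Calls over all genes, 245 at first, were 44, 227, 162, 15, 260, 656 and 1296 in the same order. With each library left out the count ran from 0 to 11. The deviations of same-numbered samples had correlations of 0.02, -0.44 and -0.36 in epidermis and 0.28, 0.14 and 0.02 in papilloma. With 3 samples per group these cannot show whether samples with the same number belong together, and the labels do not say. With the replicate block 0 members (and 54 genes in all) were called in epidermis, 33 between tissues under vehicle and 24 under CWO. The median in epidermis, 0.522 in the main fit, ran from 0.415 with the muscle covariate to 0.597 with array weights over all alternatives. The added count of members whose epidermis groups did not overlap was 34 to 41, while the share of all genes wholly higher ran from 11.5% to 22.9%. For the difference of oil effects, the count of 0 became 12 with array weights (479 over all genes, against 98), 1 after quantile normalization (109) and 0 to 5 with a library left out. Members called between tissues fell to 4 under vehicle and 0 under CWO with the muscle covariate. The median under vehicle was 0.82 at a pseudocount of 0.1, 0.49 at an FPKM of at least 5 and 0.83 with limma-voom. Under CWO it was 0.28 with median-ratio scaling and 0.29 after quantile normalization, and it was 0.047 at an FPKM of at least 5 and 0.054 with array weights. In papilloma no alternative called a member, and the median was 0.025 with array weights. Under CWO the muscle list mean on log2(FPKM + 1) was 6.64, 6.21 and 6.61 in epidermis and 0.41, 1.92 and 0.54 in papilloma. The covariate thus nearly followed tissue, and that fit cannot tell muscle from tissue. For single genes, the muscle covariate turned the sign under CWO of Mcm10 (-0.69), Pcna (0.15), Dut (0.21), Ung (0.43) and Ccne2 (-0.013), and of Ung in oiled papilloma (0.009). The difference of oil effects turned for Pold1 (-0.001 at a pseudocount of 3, -0.13 with array weights, -0.11 with vehicle epidermis libraries 1 and 2 left out, and -0.20 to 0.11 with a library left out) and for Rpa1 (-0.079 with array weights, -0.007 without CWO epidermis library 2). The causes were not tested.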
